A study of Homo sapiens with 9 samples.

Results

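The genes of cholesterol synthesis, uptake and sterol sensing were followed in Huh7 cells, a human hepatoma line, after treatment with pentagalloylglucose (PGG), a plant polyphenol made of glucose and gallic acid. The list held 30 genes, and its members were all probe sets whose platform annotation gave exactly 1 gene symbol, equal to a listed gene. This left 28 genes with 67 probe sets, out of 19775 genes and 54613 probe sets on the array. FDFT1, squalene synthase, had no probe set with a symbol here, and the probe sets of CYP51A1, lanosterol demethylase, carried several symbols, so neither was measured. Expression was read on Affymetrix arrays in 3 groups of 3 arrays, each array called a biological replicate. One group of Huh7 cells received PBS alone and was taken at 48 h. The other groups received 0.1 mg/mL PGG in PBS for 6 h or for 48 h. No PBS array at 6 h was analysed here. In the comparison of PGG 6 h with PBS the treatment and the time in culture therefore cannot be told apart, and both comparisons with PBS share the same 3 PBS arrays. In the comparison of PGG 48 h with PGG 6 h the length of exposure and the time in culture likewise cannot be told apart. The description field of the PBS arrays gives 0 h where their titles give 48 h.

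Cholesterol is built from acetyl-CoA through mevalonate, isoprenoid units, squalene and lanosterol, and a series of post-lanosterol steps trims lanosterol to cholesterol. The genes of the pathway are controlled by the SREBP transcription factors, which are held in the endoplasmic reticulum with their escort SCAP by the INSIG proteins while sterols are plentiful, and are released by Golgi proteases when sterols run low. Liver X receptors act when oxysterols accumulate and drive efflux transporters and MYLIP, a ubiquitin ligase that removes lipoprotein receptors. The liver is a principal site of both synthesis and uptake.

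Values are log2 RMA signals, the scale on which the arrays were deposited, and a difference of 1 means a 2-fold change. Each gene is read from its brightest probe set (by the mean of the 9 arrays) unless another is named. A gene was called where limma's moderated test, adjusted over all probe sets (Benjamini-Hochberg), gave an adjusted p under 0.05. RMA sets the arrays to a common distribution, so a level is relative to the rest of the RNA on its array, and in these whole-culture samples fewer cells and less RNA per cell cannot be told apart. Array medians lay between 5.16 and 5.20. All 9 measured hepatocyte markers of 10 listed were above the median of all probe sets (5.19) in every group, from 7.06 to 13.54 in PBS. Of the 9 markers of other cell types, PTPRC (3.30 in PBS) and CDH5 (3.28 in PBS) were near the bottom of the scale, whereas LYZ was at 12.14. Leukocyte markers ranged from 3.30 to 12.14 in PBS and from 3.34 to 11.96 at PGG 48 h, endothelial ones from 3.28 to 6.09 and from 3.30 to 6.55, and fibroblast ones from 4.22 to 7.52 and from 3.90 to 7.24. The actin probe sets at the 3′ end exceeded those at the 5′ end by 0.96 to 1.57 log2 units on the PBS arrays, by 1.13 to 1.23 at 6 h and by 2.14, 4.03 and 2.67 at 48 h, where replicate 2 also had the widest GAPDH gap (1.83 against 0.27 and 0.39). The part of this gap in the results at 48 h was not tested. Values without replicate 2 of PGG 48 h are given for the members whose call it changed. They are also given for MVK, DHCR7 and NPC1L1, which are among the members where this array was the lowest of its group, and for INSIG1.

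Most members were higher under PGG at 48 h. At this time 20 of the 28 genes were higher than in PBS (71.4%, where 22.9% of all genes were higher) and 2 were lower (7.14%, against 23.2% of all genes). At 6 h, 14 were higher (50%, against 15.5% of all genes) and 4 were lower (14.3%, against 15.5%). The median log2 difference of the members was 0.28 at 6 h and 1.11 at 48 h, beside 0.01 and -0.02 over all genes. The 20 genes called higher at 48 h differed by 0.51 to 2.81. The methods give limits of 1.5 for the mean difference and 0.005 for q without naming a scale, while a figure legend of the study says 1.5-fold. Read on the log2 scale of the files, 2 members passed at 6 h (0.890% of all genes did) and 10 at 48 h (5.20% of all genes). The 2 were ACAT2, higher, and ABCG1, lower, and the 10 were HMGCS1, IDI1, SQLE, MSMO1, EBP, SC5D, DHCR7, INSIG1, INSIG2 and STARD4, all higher. Read as a ratio of 1.5, the limits were passed by 11 members at 6 h (11.1% of all genes) and by 19 at 48 h (25% of all genes). ACAT2 and FDPS passed this ratio reading at both times. They are absent from the study's list of genes changed at both times, so that list follows the log2 reading. The PBS and PGG arrays did not overlap for 22 genes at 6 h (45.1% of all genes did not) and for 22 at 48 h (51.8%). Counted by probe set, 35 of the 67 were called at 6 h (24.6% of all probe sets) and 44 at 48 h (39.0%).

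**Figure D1:**
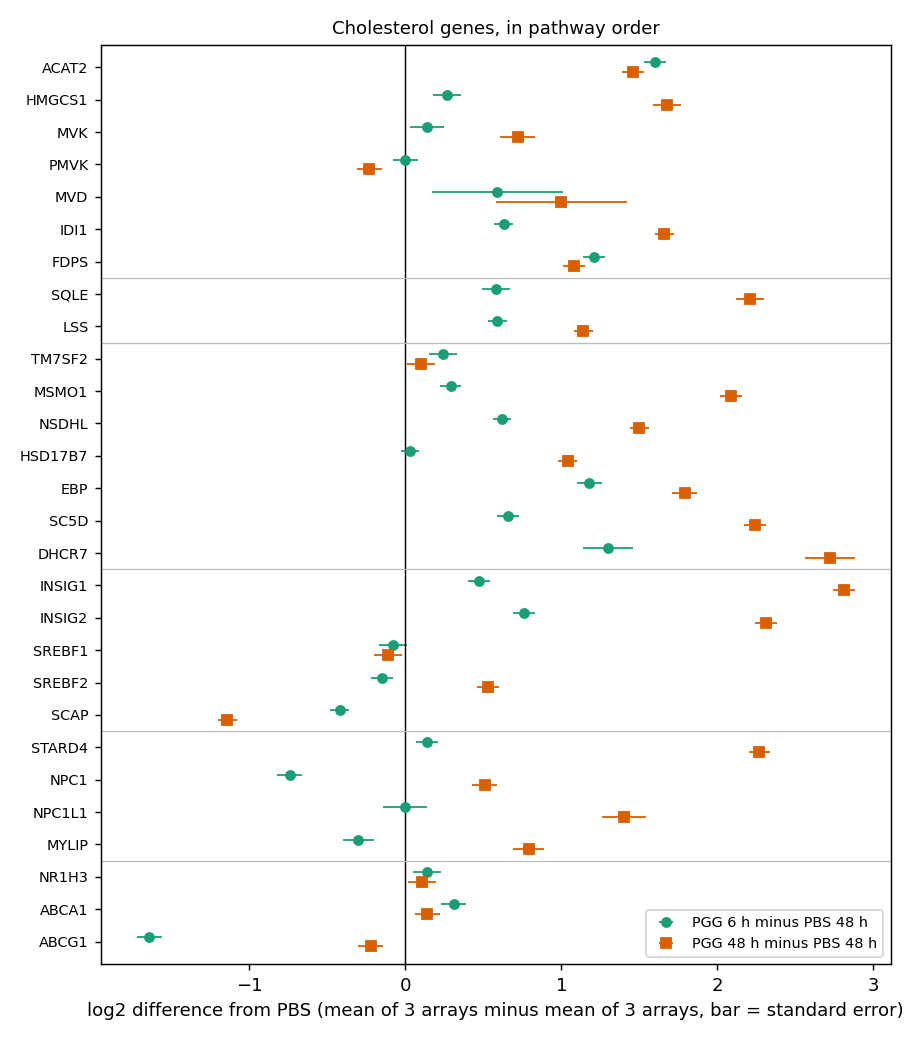
Log2 difference from PBS (difference of means of 3 arrays, with its standard error) for the 28 genes in pathway order from synthesis at the top to efflux at the bottom, with green circles for PGG 6 h, orange squares for PGG 48 h and grey lines between the roles. DHCR7 and INSIG1 reach 2.72 and 2.81 at 48 h, whereas SCAP lies at -1.14 at 48 h and ABCG1 at -1.64 at 6 h.

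Among the mevalonate steps, ACAT2, HMGCS1, IDI1 and FDPS were higher at both times. Of the 7 genes, 4 were higher at 6 h (57.1%, against 15.5% of all genes) and 5 at 48 h (71.4%, against 22.9%). At 48 h 1 was lower (14.3%, against 23.2%). ACAT2, the cytosolic thiolase that joins acetyl-CoA units, was 3.03-fold higher at 6 h and 2.74-fold higher at 48 h. ACAT2 read 9.09, 8.93 and 8.90 on the PBS arrays, 10.63, 10.48 and 10.61 at 6 h and 10.43, 10.43 and 10.43 at 48 h. Every PGG array lay above every PBS array. The log2 differences from PBS were 1.60 ± 0.07 at 6 h (adjusted p = 1.3e-07) and 1.46 ± 0.07 at 48 h (adjusted p = 3.9e-08). The PGG groups differed from each other by -0.14 (95% interval -0.30 to 0.02; adjusted p = 0.16). FDPS, which makes farnesyl diphosphate, had a like course. FDPS read 9.77, 9.86 and 9.74 on the PBS arrays, 11.07, 10.92 and 11.00 at 6 h and 10.84, 10.93 and 10.84 at 48 h. FDPS differed from PBS by 1.21 ± 0.07 at 6 h (adjusted p = 5.4e-07) and by 1.08 ± 0.07 at 48 h (adjusted p = 2.2e-07), and the PGG groups differed by -0.13 (95% interval -0.28 to 0.02; adjusted p = 0.19). Every PGG array of FDPS was likewise above every PBS array.

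HMGCS1, which makes HMG-CoA, was raised mainly at 48 h. HMGCS1 read 7.38, 7.66 and 7.51 on the PBS arrays, 7.76, 7.77 and 7.84 at 6 h and 9.10, 9.16 and 9.33 at 48 h. Its groups did not overlap at either time, although the step at 6 h was small. That is a difference of 0.27 ± 0.09 at 6 h (adjusted p = 0.042) and of 1.68 ± 0.09 at 48 h (adjusted p = 5.4e-08). The call at 6 h was lost in 6 of 18 alternative settings, among them the methods' own t-test (adjusted p = 0.12). The limma adjusted p was 0.14 without PBS replicate 1 or without PGG 6 h replicate 3, and 0.1 without PBS replicate 3. It was 0.083 and 0.092 without PGG 6 h replicates 1 and 2. The other probe set of HMGCS1 gave 0.64 at 6 h (adjusted p = 0.17) and 1.75 at 48 h (adjusted p = 6.9e-04). IDI1, isopentenyl diphosphate isomerase, was higher at both times. IDI1 read 9.76, 9.68 and 9.77 on the PBS arrays, 10.34, 10.39 and 10.38 at 6 h and 11.38, 11.45 and 11.37 at 48 h. That is a difference of 0.63 ± 0.06 at 6 h (adjusted p = 2.1e-05) and of 1.66 ± 0.06 at 48 h (adjusted p = 5.1e-09). This probe set and the other with a like result (0.67 and 1.69) are of a kind that can cross-hybridize. A further IDI1 probe set of this kind differed from PBS by -0.15 at 48 h, and the last, not of this kind, by -0.11. Both were at levels near the array median, and neither passed the test.

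MVK, mevalonate kinase, differed by 0.14 ± 0.11 at 6 h (adjusted p = 0.47) and was higher by 0.72 ± 0.11 at 48 h (adjusted p = 3.1e-04). A second of its 4 probe sets was also higher at 48 h, by 1.10, and the others were not called. PMVK, the next kinase, did not follow. It differed by 0.00 at 6 h (adjusted p = 1) and stood lower at 48 h, with -0.23 (adjusted p = 0.047). This call was lost in 12 of 18 alternative settings, among them the omission of any 1 array except PGG 48 h replicate 1, with adjusted p from 0.05 to 0.15 (-0.16 without PGG 48 h replicate 2). MVD, mevalonate diphosphate decarboxylase, was not called at either time by limma without weights or blocks. MVD read 5.51, 5.44 and 5.29 on the PBS arrays, 6.25, 5.86 and 5.89 at 6 h and 7.34, 5.12 and 6.78 at 48 h. The arrays at 48 h spread over more than the difference itself, with replicate 2 below all PBS arrays. MVD differed from PBS by 0.59 ± 0.42 at 6 h (adjusted p = 0.4) and by 1.00 ± 0.42 at 48 h (adjusted p = 0.09). Without replicate 2 of PGG 48 h the difference at 48 h was 1.65 (adjusted p = 2.1e-05) and that at 6 h, where only the error changed, had an adjusted p of 0.015. It was also called at 48 h with array weights (1.27, adjusted p = 0.0074) and with the replicate block (adjusted p = 0.049). The same array was also the lowest of its group for MVK (8.51 against 9.03 and 8.69), and without it the difference of MVK at 48 h was 0.84. Its actin gap was 4.03, the widest of the 9 arrays.

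Both measured enzymes between squalene and lanosterol were higher at both times by their brightest probe sets. SQLE, squalene epoxidase, is a rate-limiting step of the pathway. SQLE read 8.73, 8.86 and 8.81 on the PBS arrays, 9.34, 9.38 and 9.41 at 6 h and 10.88, 11.20 and 10.94 at 48 h. All 4 of its probe sets were higher at 48 h, by 1.70 to 2.61, and 3 at 6 h, the exception having 0.18 (adjusted p = 0.36). SQLE differed from PBS by 0.58 ± 0.09 at 6 h (adjusted p = 4.9e-04) and by 2.21 ± 0.09 at 48 h (adjusted p = 7.7e-09). LSS, lanosterol synthase, closes the sterol rings. LSS read 8.62, 8.61 and 8.72 on the PBS arrays, 9.21, 9.25 and 9.25 at 6 h and 9.76, 9.79 and 9.81 at 48 h. Its 3 groups formed separate steps with no overlap. That is a difference of 0.59 ± 0.06 at 6 h (adjusted p = 3.5e-05) and of 1.14 ± 0.06 at 48 h (adjusted p = 6.4e-08). The other probe sets of LSS gave 2.00 and 0.67 at 48 h, both higher, and 0.62 and 0.12 at 6 h, where the latter was not called (adjusted p = 0.65). SQLE rose further between the PGG times by 1.63 ± 0.09 (adjusted p = 8.2e-08) and LSS by 0.55 ± 0.06 (adjusted p = 2.2e-05).

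After lanosterol, 5 of 7 measured enzymes were higher at 6 h (71.4%, against 15.5% of all genes) and 6 at 48 h (85.7%, against 22.9%). None was lower, where 15.5% of all genes were at 6 h and 23.2% at 48 h. MSMO1, the sterol methyl oxidase of C4 demethylation, was raised mainly at 48 h. MSMO1 read 10.30, 10.44 and 10.42 on the PBS arrays, 10.68, 10.66 and 10.68 at 6 h and 12.46, 12.57 and 12.40 at 48 h. The 6 h arrays stood just above PBS, and the 48 h arrays far above both. MSMO1 differed from PBS by 0.29 ± 0.07 at 6 h (adjusted p = 0.0098) and by 2.09 ± 0.07 at 48 h (adjusted p = 2.6e-09). NSDHL acts in the same demethylation. NSDHL read 6.69, 6.68 and 6.79 on the PBS arrays, 7.34, 7.35 and 7.34 at 6 h and 8.26, 8.25 and 8.15 at 48 h. The groups again formed 3 steps. That is a difference of 0.62 ± 0.06 at 6 h (adjusted p = 3.1e-05) and of 1.5 ± 0.06 at 48 h (adjusted p = 1.2e-08), the latter at the log2 limit and not past it, while its other probe set was just past it with 1.51 (adjusted p = 3.2e-08). HSD17B7, the reductase that completes demethylation, was measured by 1 probe set, of the kind that can cross-hybridize. HSD17B7 read 8.33, 8.37 and 8.41 on the PBS arrays, 8.44, 8.33 and 8.42 at 6 h and 9.44, 9.35 and 9.43 at 48 h. The 6 h and PBS arrays overlapped. HSD17B7 differed from PBS by 0.03 ± 0.06 at 6 h (adjusted p = 0.83) and by 1.04 ± 0.06 at 48 h (adjusted p = 1.8e-07).

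EBP, the isomerase that moves the ring double bond, was raised early and further at 48 h. EBP read 10.13, 10.35 and 10.42 on the PBS arrays, 11.46, 11.48 and 11.51 at 6 h and 12.14, 11.98 and 12.14 at 48 h. EBP differed from PBS by 1.18 ± 0.08 at 6 h (adjusted p = 2.7e-06) and by 1.79 ± 0.08 at 48 h (adjusted p = 2.8e-08). A second probe set of EBP gave 1.15 and 1.99, and the other 2 did not pass the test. SC5D, sterol desaturase, was raised mainly at 48 h. SC5D read 8.57, 8.48 and 8.33 on the PBS arrays, 9.13, 9.10 and 9.14 at 6 h and 10.74, 10.69 and 10.66 at 48 h. That is a difference of 0.66 ± 0.07 at 6 h (adjusted p = 5.0e-05) and of 2.24 ± 0.07 at 48 h (adjusted p = 2.3e-09). Its other probe set gave -0.03 at 6 h (adjusted p = 0.94) and 1.25 at 48 h (adjusted p = 5.7e-04). DHCR7, which makes cholesterol from its last precursor on this branch, reached 6.57-fold at 48 h. DHCR7 read 8.55, 8.45 and 8.62 on the PBS arrays, 9.87, 9.80 and 9.84 at 6 h and 11.60, 10.81 and 11.36 at 48 h. Replicate 2 of PGG 48 h was the lowest of its group, yet far above all 6 h arrays. The log2 differences from PBS were 1.30 ± 0.16 at 6 h (adjusted p = 1.2e-04) and 2.72 ± 0.16 at 48 h (adjusted p = 1.3e-07), and the latter was 2.94 without that array. A second probe set of DHCR7 gave 1.23 and 2.47. TM7SF2, a sterol reductase acting before these steps, was not called, with 0.24 at 6 h (adjusted p = 0.078) and 0.10 at 48 h (adjusted p = 0.43). It passed at 6 h in 5 of 18 alternative settings, with adjusted p from 0.026 to 0.048. They were quantile normalization, dim probe sets left out, the mean of all probe sets, array weights and the omission of PGG 48 h replicate 2 (0.048).

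**Figure D2:**
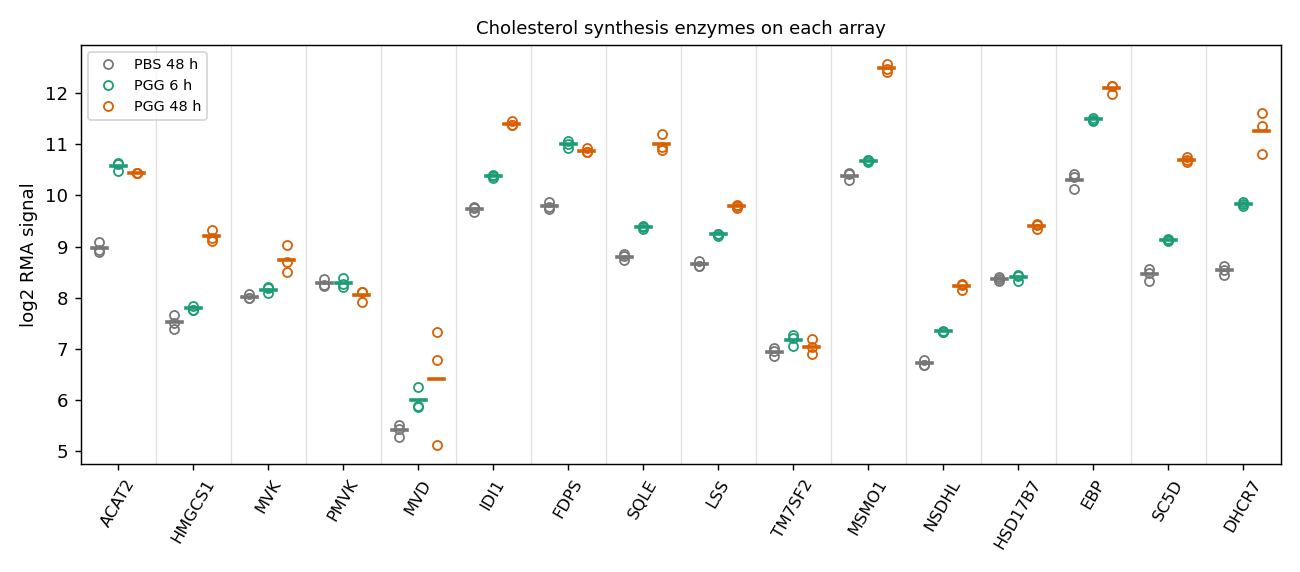
Log2 RMA signal of the 16 measured synthesis enzymes on each of the 9 arrays, in pathway order, with open circles for arrays and short lines for means of 3 (grey PBS 48 h, green PGG 6 h, orange PGG 48 h); heights of different genes cannot be compared. ACAT2 and FDPS are high by 6 h, HSD17B7 only at 48 h, and the MVD arrays at 48 h run from 5.12 to 7.34.

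Over the 16 measured synthesis enzymes, 11 were higher at 6 h (68.8%, against 15.5% of all genes) and 13 at 48 h (81.2%, against 22.9%). None was lower at 6 h and 1 was lower at 48 h (6.25%, against 23.2%). The medians of their log2 differences were 0.59 at 6 h and 1.48 at 48 h. The size of the difference at 6 h relative to that at 48 h differed from gene to gene. The log2 difference at 6 h was 112% of that at 48 h for FDPS and 110% for ACAT2, 66.2% for EBP and 51.6% for LSS. It was 13.7% for MSMO1, 16.3% for HMGCS1 and 2.57% for HSD17B7. In the direct test of PGG 48 h against PGG 6 h, 19 of the 28 genes were higher at 48 h (67.9%, against 22.4% of all genes) and 2 were lower (7.14%, against 22.0%). The 2 lower genes were PMVK and SCAP, and the PMVK call had an adjusted p of 0.049. Without PBS arrays at 6 h, neither these percentages nor this test separates exposure from time in culture.

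Among the sterol-sensing genes the INSIG pair and SCAP moved in opposite directions. INSIG1, which retains SCAP and is itself an SREBP target, showed the largest difference of the 28 genes at 48 h with all arrays kept. Without replicate 2 of PGG 48 h its difference was 2.77, below that of DHCR7 (2.94). INSIG1 read 8.10, 7.98 and 8.05 on the PBS arrays, 8.61, 8.46 and 8.48 at 6 h and 10.79, 10.95 and 10.83 at 48 h. The groups did not overlap, and the larger step lay between 6 h and 48 h (2.34 ± 0.07, adjusted p = 2.9e-09). Against PBS it was 1.39-fold higher at 6 h (adjusted p = 5.6e-04) and 7.03-fold higher at 48 h (adjusted p = 8.3e-10). A dimmer probe set of INSIG1 gave a larger difference, 1.29 at 6 h and 3.28 at 48 h, and the third 0.47 and 2.85. INSIG2, its paralog with the same retaining role, rose too. INSIG2 read 9.33, 9.28 and 9.52 on the PBS arrays, 10.14, 10.14 and 10.14 at 6 h and 11.68, 11.74 and 11.63 at 48 h. The 3 groups stood apart from each other. INSIG2 differed from PBS by 0.76 ± 0.07 at 6 h (adjusted p = 2.3e-05) and by 2.31 ± 0.07 at 48 h (adjusted p = 2.3e-09).

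SCAP, the escort that carries SREBP to the Golgi, fell at both times. SCAP read 9.09, 9.11 and 9.08 on the PBS arrays, 8.66, 8.67 and 8.68 at 6 h and 7.97, 7.91 and 7.99 at 48 h. Its arrays agreed within 0.08 in each group and the groups did not overlap. The log2 differences from PBS were -0.42 ± 0.06 at 6 h (adjusted p = 2.5e-04) and -1.14 ± 0.06 at 48 h (adjusted p = 4.5e-08), the latter a 2.2-fold lower signal. SREBF2, which encodes the SREBP most tied to cholesterol genes, was higher at 48 h. SREBF2 read 7.61, 7.82 and 7.72 on the PBS arrays, 7.56, 7.54 and 7.59 at 6 h and 8.20, 8.30 and 8.24 at 48 h. That is a difference of -0.15 ± 0.07 at 6 h (adjusted p = 0.15) and of 0.53 ± 0.07 at 48 h (adjusted p = 8.1e-05). Its other probe sets gave 0.25 (adjusted p = 0.028) and 0.36 (adjusted p = 0.15) at 48 h. SREBF1, which encodes the SREBP more tied to fatty acid genes, was not called. SREBF1 read 7.41, 7.58 and 7.67 on the PBS arrays, 7.40, 7.52 and 7.49 at 6 h and 7.47, 7.29 and 7.58 at 48 h. The 3 groups overlapped. The log2 differences from PBS were -0.08 ± 0.09 at 6 h (adjusted p = 0.61) and -0.11 ± 0.09 at 48 h (adjusted p = 0.42), with a 95% interval at 48 h of -0.31 to 0.10.

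**Figure D3:**
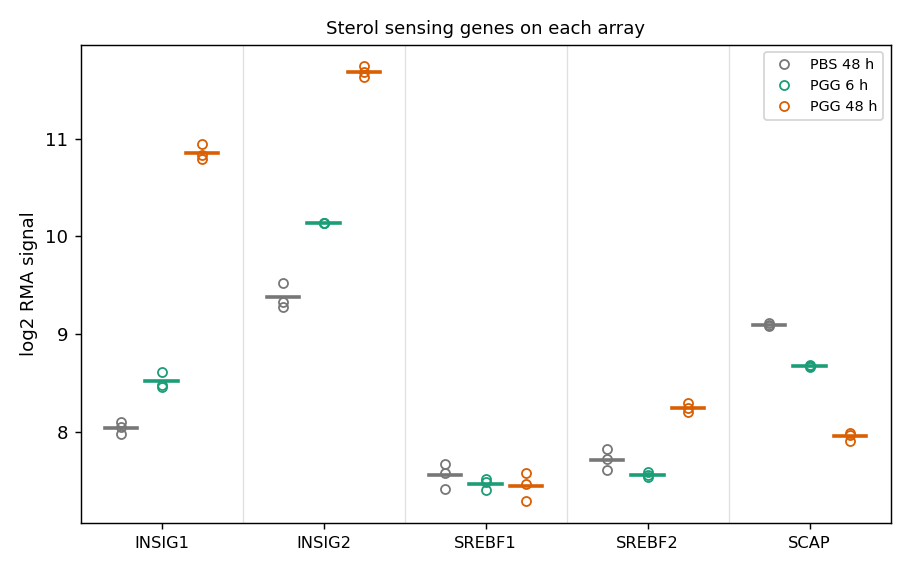
Log2 RMA signal of INSIG1, INSIG2, SREBF1, SREBF2 and SCAP on each of the 9 arrays, with open circles for arrays and short lines for means of 3 (grey PBS 48 h, green PGG 6 h, orange PGG 48 h). INSIG1 and INSIG2 climb in 3 steps, SCAP falls in 3 steps, SREBF2 is higher at 48 h and the SREBF1 groups overlap.

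The promoters of the members were read for the motifs through which SREBP acts, in the 250 bases before each RefSeq start (GRCh38.p14), on both strands. The sterol regulatory element was searched as TCACNCCAC, the box of its partner NF-Y as CCAAT and the GC box of its other partners as GGGCGG, and none of these motifs contains another. The table held 26 of the 30 listed genes. A match to the sterol regulatory element string was in 1 of the 26, SREBF2, and in 0.875% of all 27305 promoters. CCAAT was in 17 of the 26 (65.4%), against 33% of all promoters, and the GC box in 23 (88.5%), against 42.3%. Among genes with a probe set the shares were higher, with CCAAT in 34.1% and the GC box in 56.3%, against 68% and 88% of the 25 members with one. The GC box was in 66.2% of the genes higher at 48 h and in 65.5% of those lower. Among the 18 members that were higher at 48 h and had a promoter in the table, 15 held CCAAT (83.3%), where 37.8% of all 3682 genes that were higher at 48 h and had one did. SCAP and PMVK, the 2 members lower at 48 h, had none, and 33.3% of all 3752 genes that were lower and had a promoter held it. IDI1, INSIG2 and NPC1 also had none although they were higher, and 2 of the 5 uncalled members held CCAAT. Whether CCAAT goes with the direction of change was not tested. A match is a description of letters and not a shown site. A missing match does not show that an element is absent, because only these strings in 250 bases were searched. SREBF2 is printed as the member with a match to the sterol regulatory element string, 133 to 125 bases before its start. INSIG1 is the member with the largest difference at 48 h when all arrays are kept. MSMO1 and NSDHL are late and stepwise members rich in CCAAT. INSIG1, MSMO1 and NSDHL were chosen after their values were seen. Capitals mark the sterol regulatory element and CCAAT or its reverse complement.
SREBF2 (chr22:41832855-41833104, plus strand): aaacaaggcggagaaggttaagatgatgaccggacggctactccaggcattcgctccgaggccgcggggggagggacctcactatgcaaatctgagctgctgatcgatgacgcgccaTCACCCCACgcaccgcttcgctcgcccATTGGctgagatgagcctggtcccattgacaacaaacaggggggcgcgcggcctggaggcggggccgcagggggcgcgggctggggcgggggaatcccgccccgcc
INSIG1 (chr7:155297628-155297877, plus strand): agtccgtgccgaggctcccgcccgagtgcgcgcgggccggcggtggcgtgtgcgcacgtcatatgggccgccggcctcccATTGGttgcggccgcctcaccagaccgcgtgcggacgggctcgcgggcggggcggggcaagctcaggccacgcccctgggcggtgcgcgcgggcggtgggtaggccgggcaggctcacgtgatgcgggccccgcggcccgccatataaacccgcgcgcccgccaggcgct
MSMO1 (chr4:165327419-165327668, plus strand): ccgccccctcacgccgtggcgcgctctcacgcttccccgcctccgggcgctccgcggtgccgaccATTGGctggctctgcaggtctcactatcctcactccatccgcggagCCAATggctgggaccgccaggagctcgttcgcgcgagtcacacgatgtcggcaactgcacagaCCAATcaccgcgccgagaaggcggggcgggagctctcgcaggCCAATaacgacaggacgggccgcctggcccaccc
NSDHL (chrX:152830813-152831062, plus strand): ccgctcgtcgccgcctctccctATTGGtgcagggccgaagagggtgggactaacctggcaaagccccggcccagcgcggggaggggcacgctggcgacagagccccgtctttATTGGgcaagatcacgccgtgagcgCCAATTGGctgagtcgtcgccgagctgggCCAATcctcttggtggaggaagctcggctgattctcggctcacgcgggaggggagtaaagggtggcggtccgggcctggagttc
MSMO1 holds 4 CCAAT matches and INSIG1 holds 1, while NSDHL has 5, 2 of which overlap on opposite strands.

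Of the 4 genes of sterol transport and uptake control, none was higher at 6 h and 2 were lower. Over all genes 15.5% were higher and 15.5% lower at this time. All 4 were higher at 48 h, against 22.9% of all genes. STARD4, a cytosolic carrier of cholesterol, was raised at 48 h. STARD4 read 8.02, 8.06 and 8.14 on the PBS arrays, 8.22, 8.13 and 8.30 at 6 h and 10.32, 10.43 and 10.27 at 48 h. The 6 h arrays sat within 0.3 of the PBS arrays. STARD4 differed from PBS by 0.14 ± 0.07 at 6 h (adjusted p = 0.2) and by 2.27 ± 0.07 at 48 h (adjusted p = 2.3e-09). NPC1L1, a sterol uptake transporter of the cell surface, had the same course. NPC1L1 read 7.09, 7.34 and 7.35 on the PBS arrays, 7.21, 7.31 and 7.26 at 6 h and 8.82, 8.30 and 8.85 at 48 h. NPC1L1 differed from PBS by 0.00 ± 0.14 at 6 h (adjusted p = 1) and by 1.40 ± 0.14 at 48 h (adjusted p = 7.2e-06). Replicate 2 of PGG 48 h was again the lowest of its group, and the difference at 48 h was 1.57 without it. The other probe sets of NPC1L1, at levels below the array median, gave 0.09 each at 48 h and were not called.

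NPC1, which exports cholesterol from lysosomes, was lower at 6 h and higher at 48 h. Its differences were -0.74 ± 0.08 at 6 h (adjusted p = 3.3e-05) and 0.51 ± 0.08 at 48 h (adjusted p = 2.0e-04). The probe sets of NPC1 disagreed at 6 h, where a dimmer one was higher by 0.99 (adjusted p = 0.0011), and the mean of its probe sets was not called there. MYLIP crossed in the same way, with -0.30 ± 0.10 at 6 h (adjusted p = 0.047) and 0.79 ± 0.10 at 48 h (adjusted p = 5.3e-05). The 6 h call of this probe set was lost in 9 of 18 alternative settings, among them the omission of any 1 array except PGG 6 h replicate 2 and PGG 48 h replicate 2, with adjusted p from 0.051 to 0.18. However, 3 others of its 6 probe sets were also lower at 6 h. Between the PGG times NPC1 differed by 1.25 ± 0.08 (adjusted p = 2.1e-07) and MYLIP by 1.09 ± 0.10 (adjusted p = 4.5e-06).

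The efflux genes did not move as a group. None of the 3 was called at 48 h, where 22.9% of all genes were higher and 23.2% lower. ABCG1, which passes cholesterol to HDL, fell sharply at 6 h. ABCG1 read 6.82, 7.09 and 7.01 on the PBS arrays, 5.35, 5.29 and 5.35 at 6 h and 6.65, 6.87 and 6.75 at 48 h. All 6 h arrays lay below all others by more than 1 unit, and at 48 h the arrays overlapped those of PBS. The log2 differences from PBS were -1.64 ± 0.08 at 6 h (adjusted p = 3.1e-07) and -0.22 ± 0.08 at 48 h (adjusted p = 0.066). At 48 h ABCG1 was called lower in 5 of 18 alternative settings. It passed with the mean of all probe sets (-0.40, adjusted p = 5.5e-04), array weights (-0.27, adjusted p = 0.018) and dim probe sets left out (-0.22, adjusted p = 0.043). It also passed without PBS replicate 1 (-0.29, adjusted p = 0.015) and without PGG 48 h replicate 2 (-0.27, adjusted p = 0.031). All 4 probe sets of ABCG1 were lower at 6 h, and the other 3 were lower at 48 h as well, with differences from -0.32 to -0.55. ABCA1, which loads cholesterol onto lipid-poor apolipoproteins, was higher by 0.31 ± 0.08 at 6 h (adjusted p = 0.015) and differed by 0.14 at 48 h (adjusted p = 0.22). Its call at 6 h was lost without PGG 6 h replicate 1 (adjusted p = 0.053) and by the methods' own test (adjusted p = 0.1). NR1H3, the liver X receptor that drives both, differed by 0.14 at 6 h (adjusted p = 0.35) and 0.11 at 48 h (adjusted p = 0.39; 95% interval -0.09 to 0.32).

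**Figure D4:**
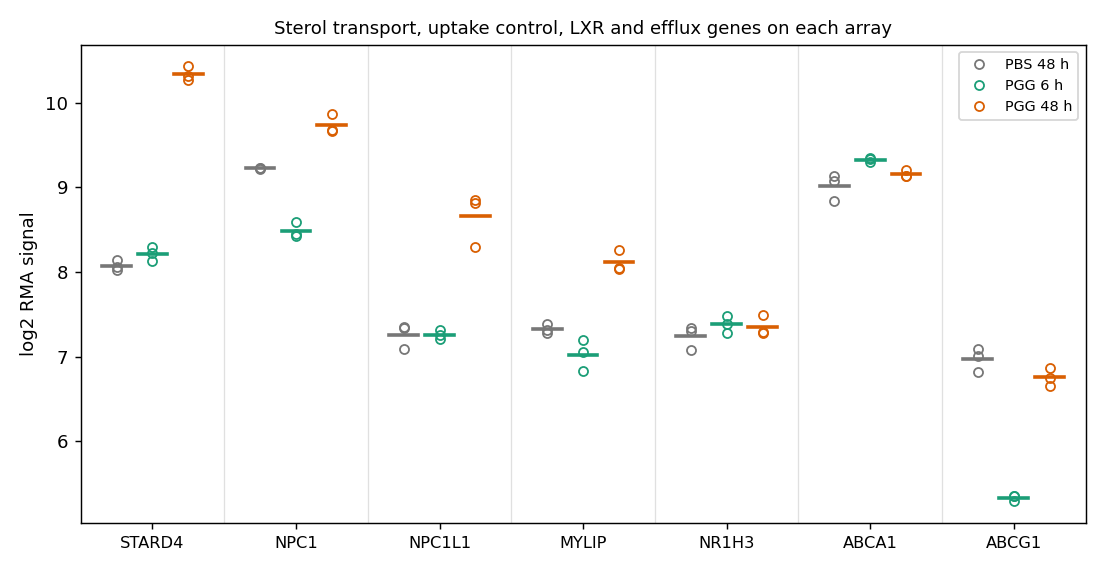
Log2 RMA signal of 4 transport and uptake genes and 3 liver X receptor and efflux genes on each of the 9 arrays, with open circles for arrays and short lines for means of 3 (grey PBS 48 h, green PGG 6 h, orange PGG 48 h). STARD4 and NPC1L1 are high only at 48 h, NPC1 and MYLIP dip at 6 h, and ABCG1 drops to 5.29 to 5.35 at 6 h.

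A further list of 38 genes of the surrounding pathway was read in the same way. It held SREBP processing and sterol-controlled degradation, isoprenoid branches, storage and trafficking, liver X receptor partners and oxysterol enzymes, and 5 other genes. Of the 35 measured, 14 were higher (40%, against 15.5% of all genes) and 6 lower (17.1%, against 15.5%) at 6 h. At 48 h 20 were higher (57.1%, against 22.9% of all genes) and 8 lower (22.9%, against 23.2%). Its median difference was 0.10 at 6 h and 0.37 at 48 h. The largest called rises at 48 h were those of ACSS2, which makes cytosolic acetyl-CoA (3.01, adjusted p = 6.6e-10), NPC2, the soluble partner of NPC1 (2.55, adjusted p = 2.3e-09), and LPIN1, a phosphatidate phosphatase (2.12, adjusted p = 1.2e-08). At 6 h they were ACSS2 (1.18), ERG28, a scaffold of the C4 demethylation enzymes (0.93), and LIPA, the lysosomal cholesteryl ester hydrolase (0.88). ACSS2, LPIN1 and ERG28 belong to the 5 other genes, of which 4 were higher at 48 h (80%, against 22.9% of all genes). The largest called falls at 6 h were VLDLR, a lipoprotein receptor (-2.12, adjusted p = 1.0e-07), LPCAT3, a phospholipid acyltransferase (-0.81), and MBTPS2, a protease that releases SREBP (-0.63). At 48 h they were PDSS1, of ubiquinone side chain synthesis (-1.55, adjusted p = 1.1e-08), MBTPS2 (-1.37, adjusted p = 2.6e-08) and ERLIN1, which takes part in INSIG turnover (-0.68). Of the 6 measured genes of SREBP processing and of sterol-controlled degradation, 2 were higher at 48 h (33.3%, against 22.9% of all genes). The other 4 were lower (66.7%, against 23.2%). The SREBP proteases MBTPS1 (0.41, adjusted p = 4.6e-04) and MBTPS2 were on opposite sides. Of the 9 storage and trafficking genes, 7 were higher at 48 h (77.8%, against 22.9% of all genes) and none was lower (against 23.2%). Among the 7 measured liver X receptor partners and oxysterol enzymes, 1 was higher at 48 h (14.3%, against 22.9%) and 2 were lower (28.6%, against 23.2%).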

How the data were processed

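Huh7 RNA was hybridised to Affymetrix arrays (9 arrays, 3 groups of 3). The authors deposited log2 values per probe set, made with the RMA algorithm of Affymetrix Expression Console (version not given in the sources used here). Of 54675 probe sets, 62 controls were left out. The platform annotation gave 1 symbol to 41091 probe sets, several to 1801 and none to 11721. Probe sets of 1 symbol were read as 19775 genes, each by its probe set of highest mean. The scale holds no read depth, and the number of arrays limits the precision.

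A linear model with 1 mean per group was fitted to the deposited log2 values with limma 3.58.1 (R 4.3.3), with moderated variances and Benjamini-Hochberg adjustment over 54613 probe sets. Errors are standard errors and intervals are 95%. The script was tested on simulated data. The labels name biological replicates but no separate cultures, so p-values measure the spread between these arrays. Every member is named, and values on each array are given for members called with a difference beyond 1 and for the 5 sensing genes. Of the further list, at most 3 genes in each direction per comparison are named. The members, lists and alternatives were chosen with earlier results of these data known. Alternatives were the methods' t-test, other scalings, probe set choices and filters, a variance trend, array weights, a replicate block and leaving out each array.

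Promoters came from a RefSeq table of GRCh38.p14.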

Additional observations from a re-analysis of the deposited data

Results flagged for a closer look

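In 21 of the 28 genes the difference from PBS at 48 h was not the same as that at 6 h, by the test of PGG 48 h against PGG 6 h (limma, adjusted p under 0.05), where 22.4% of all genes were higher and 22.0% lower at 48 h. The values in brackets are log2 signals at 48 h minus those at 6 h. Among the synthesis enzymes they were HMGCS1 (1.41), MVK (0.58), IDI1 (1.03), SQLE (1.63) and LSS (0.55), and after lanosterol MSMO1 (1.80), NSDHL (0.88), HSD17B7 (1.01), EBP (0.60), SC5D (1.57) and DHCR7 (1.42). PMVK went the other way (-0.23). In sensing, INSIG1 (2.34), INSIG2 (1.54) and SREBF2 (0.68) were higher at 48 h than at 6 h and SCAP (-0.71) was lower. The transport genes STARD4 (2.12), NPC1 (1.25), NPC1L1 (1.40) and MYLIP (1.09) were higher, and so was ABCG1 (1.43), which returned toward PBS. Dixon's test for an outlying array was not applied to groups of 3. PGG 48 h replicate 2 lay over 0.3 below both other arrays of its group for 7 of the 67 probe sets. It lay over 0.3 above both for 2, and 7.87% of all probe sets stood apart on this array.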

How the results depend on the processing

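The counts of members higher than PBS stayed at 12 to 16 at 6 h and at 18 to 21 at 48 h over the 18 alternatives. The variance trend left every count as reported. Small counts moved. Members lower at 48 h numbered 1 in place of 2 by the methods' t-test, by median centring and with the replicate block, 3 with dim probe sets left out and with the mean of all probe sets, and 1 to 2 with each array left out. Members lower at PGG 48 h than at PGG 6 h numbered 1 in place of 2 by median centring, with array weights and with the replicate block, 3 by quantile normalization, and 1 to 2 with each array left out. With the mean of all probe sets of a gene, 1 member in place of 2 passed the study's threshold at 6 h. With its limit read as a ratio of 1.5, chosen after seeing the data, 11 passed at 6 h and 19 at 48 h. With cross-hybridizing probe sets left out, the IDI1 difference at 48 h was -0.11 (adjusted p = 0.53), from the 1 probe set that remained, near the array median, and HSD17B7 had none. Among single genes, besides IDI1 at 48 h, 32 calls were lost and 15 gained over all alternatives, mostly those near the threshold (HMGCS1, TM7SF2, MYLIP and ABCA1 at 6 h, PMVK, MVD and ABCG1 at 48 h). Arrays with the same replicate number did not deviate together (r from -0.089 to 0.162), so the numbers were not taken to pair the samples. With the replicate block, 14 members were higher at 6 h and 21 at 48 h. Without replicate 2 of PGG 48 h, 16 were higher at 6 h and 21 at 48 h, and 12 in place of 10 passed the study's threshold at 48 h. No detection call was used, and 8 of the 67 probe sets had means below the array median.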
